A study of Mus musculus with 18 samples.

Results

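The matrix metalloproteinases (MMPs), the ADAMTS proteases, the ADAMTS-like proteins and the tissue inhibitors of metalloproteinases (TIMPs) were followed through the first 72 h of a myocardial infarction in mice. Members were all genes of the series count table whose symbol begins with Mmp, Adamts, Adamtsl or Timp and a number, with at least 20 counts summed over the 18 libraries. This rule gave 44 members of the 30583 genes in the table: 17 MMPs, 18 ADAMTS, 5 ADAMTS-like and 4 TIMPs. Another 6 genes matched by symbol but had fewer counts (Adamts13, Mmp1b, Mmp7, Mmp10, Mmp20 and Mmp21) and are not described further. Every one of the 18 mice was a male C57BL/6JR animal of 12 weeks, with 3 mice in each of 6 groups and 1 library per mouse. In 5 groups the left anterior descending coronary artery was tied under pentobarbital anaesthesia to induce infarction, and hearts were taken 72 h, 24 h, 6 h, 1 h or only 10 min later. The sham group had the suture passed but left untied, and stands as 0 h in the design, so no sham mice matched the later times and the effect of surgery and recovery over hours cannot be told apart from that of the infarct. RNA came from the infarcted region of the left ventricle.

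MMPs are secreted or membrane-bound zinc endopeptidases that cut collagens, gelatins and other matrix proteins, and are made as inactive proenzymes. The ADAMTS family are secreted relatives with thrombospondin repeats: some cut proteoglycans such as versican and aggrecan, others trim the amino-terminal propeptide from procollagens. ADAMTS-like proteins share the ancillary domains but lack the protease domain, and several bind fibrillin microfibrils. TIMPs bind the active site of these enzymes. Timp3 is held in the matrix and also inhibits several ADAMTS proteases, and Timp4 is known as a TIMP that is abundant in the heart. In an infarct, matrix turnover begins as neutrophils and then macrophages enter, and fibroblasts later lay down new collagen.

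A group of 5 MMP members lies next to each other in 1 cluster on chromosome 9 (GRCm38 chr9:7272514-7699585, which holds 9 matching genes of the table): Mmp13, Mmp12, Mmp3, Mmp8 and Mmp27. All 5 were called higher than sham at 72 h, 4 of them at 24 h (not Mmp27) and 2 at 6 h (Mmp3 and Mmp8), where 34.2%, 23.7% and 16.3% of all genes tested were higher at those times. Mmp27 passed the filter for testing only through its 72 h libraries. The promoters of the 5 are printed, with that of Timp1 because these neighbours all rose by 72 h and Timp1 had the largest increase of the 4 inhibitors. Each runs from 250 bases before to 50 bases after the start of transcription, 5′ to 3′ on the gene's strand, from RefSeq on GRCm38.p6, in which 29 of the 44 members had an entry. All 6 genes lie on the plus strand. Capitals mark the AP-1 motif TGAGTCA or its reverse complement TGACTCA. The windows are chr9:7272264-7272563 for Mmp13, chr9:7344147-7344446 for Mmp12, chr9:7445572-7445871 for Mmp3, chr9:7558179-7558478 for Mmp8, chr9:7571146-7571445 for Mmp27 and chrX:20869916-20870215 for Timp1.
Mmp13: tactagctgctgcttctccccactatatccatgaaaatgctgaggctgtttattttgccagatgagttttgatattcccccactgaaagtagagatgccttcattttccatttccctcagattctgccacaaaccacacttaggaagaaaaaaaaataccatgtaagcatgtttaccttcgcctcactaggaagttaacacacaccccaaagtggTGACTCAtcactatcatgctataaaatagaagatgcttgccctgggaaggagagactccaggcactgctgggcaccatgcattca
Mmp12: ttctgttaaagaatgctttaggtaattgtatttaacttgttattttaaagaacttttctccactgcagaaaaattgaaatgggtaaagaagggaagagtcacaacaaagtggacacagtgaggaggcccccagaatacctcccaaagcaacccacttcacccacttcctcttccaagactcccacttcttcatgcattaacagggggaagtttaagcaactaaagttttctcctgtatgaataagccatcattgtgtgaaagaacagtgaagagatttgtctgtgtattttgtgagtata
Mmp3: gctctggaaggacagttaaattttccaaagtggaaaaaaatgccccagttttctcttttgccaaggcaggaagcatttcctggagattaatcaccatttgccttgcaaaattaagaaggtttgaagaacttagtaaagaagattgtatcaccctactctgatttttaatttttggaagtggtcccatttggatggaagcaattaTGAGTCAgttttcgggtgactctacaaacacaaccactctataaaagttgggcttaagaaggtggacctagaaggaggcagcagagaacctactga
Mmp8: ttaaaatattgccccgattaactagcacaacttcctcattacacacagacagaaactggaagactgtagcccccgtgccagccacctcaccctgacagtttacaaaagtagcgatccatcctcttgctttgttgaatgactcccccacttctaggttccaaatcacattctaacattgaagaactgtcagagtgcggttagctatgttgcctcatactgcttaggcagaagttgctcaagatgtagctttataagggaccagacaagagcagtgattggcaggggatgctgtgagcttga
Mmp27: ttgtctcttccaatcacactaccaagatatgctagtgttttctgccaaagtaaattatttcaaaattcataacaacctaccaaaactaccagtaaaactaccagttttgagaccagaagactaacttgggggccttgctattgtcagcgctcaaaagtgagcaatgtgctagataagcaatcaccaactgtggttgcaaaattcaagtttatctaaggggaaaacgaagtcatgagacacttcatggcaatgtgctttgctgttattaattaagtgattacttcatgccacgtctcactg
Timp1: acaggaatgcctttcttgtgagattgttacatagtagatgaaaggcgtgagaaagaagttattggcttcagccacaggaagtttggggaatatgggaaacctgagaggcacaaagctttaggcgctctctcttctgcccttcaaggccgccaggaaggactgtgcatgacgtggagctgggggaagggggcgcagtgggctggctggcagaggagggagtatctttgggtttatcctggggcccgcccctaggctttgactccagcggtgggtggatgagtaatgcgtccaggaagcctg
The AP-1 letters occurred in the Mmp13 window, with the first base at -35 from the start, and in the Mmp3 window, at -46. No other member with an entry held them, which makes 2 of 29 members (6.9%) against 5.2% of the 32851 promoters in the table. The Ets core AGGAAG (or CTTCCT) was found in 10 of the 29 (34.5%), against 35.4% of all promoters, and TATAAA (or TTTATA) in 5 (17.2%; Mmp3, Mmp8, Mmp13, Adamts1 and Adamtsl2), against 13.6%. These are matches of letters in a fixed window, both strands searched, and the shares were close to those of all promoters.

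Libraries held 18.2 to 25.1 M counts (M, mega). Levels below are CPM, counts per M counts of the library after TMM scaling, and are given per library in replicate order before any mean ± SD (n = 3). Comparisons between genes use FPKM, which is also divided by gene length. Differences are log2 fold changes (log2FC) from 1 edgeR quasi-likelihood model over all 18 libraries, with their standard errors (SE), and a gene is called when its p-value, adjusted over all 16311 genes tested, is under 0.05. All comparisons with sham share the same 3 sham libraries. Nothing in the labels describes separate batches. The labels give cardiomyocytes as the cell type, but no step that separates cells is described, and sham libraries held markers of other cells: 784 to 850 CPM summed over 7 fibroblast markers and 1090 to 1220 CPM over 5 endothelial markers, beside 65600 to 71000 CPM over 8 cardiomyocyte markers. The samples are therefore described as tissue, in which fewer cells of a type and less RNA per cell cannot be told apart.

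Which members changed, and when, is asked first. Of the 43 members with enough counts to test (Adamts18, with 31 counts in all, was not tested), 41 differed from sham at some time by an F test of the 5 contrasts, against a background of 78.4% of all genes tested. Adamts15 and Mmp25 were the exceptions. No member was called at 10 min, when 0.0736% of all genes were. Of the 43, 7 had an unadjusted p under 0.05, beside 1144 of all 16311 genes tested. At 1 h again 0 were called, against 0.294%, and 4 had an unadjusted p under 0.05, beside 899 of the 16311 genes. At 6 h 19 members were called, 12 higher and 7 lower, while the background was 28.4%, with 16.3% of all genes higher and 12.2% lower. By 24 h 29 were called, 18 higher and 11 lower, against 43.8% (23.7% higher and 20.2% lower). At 72 h the count was 37, with 30 higher and 7 lower, against 66.4% (34.2% higher and 32.2% lower). The median log2 fold change of the 43 members was 0.22, 0.14, 0.19, 0.18 and 1.31 at the 5 times in order, and that of all genes tested was 0.01, -0.01, -0.01, 0.01 and 0.03.

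**Figure D1:**
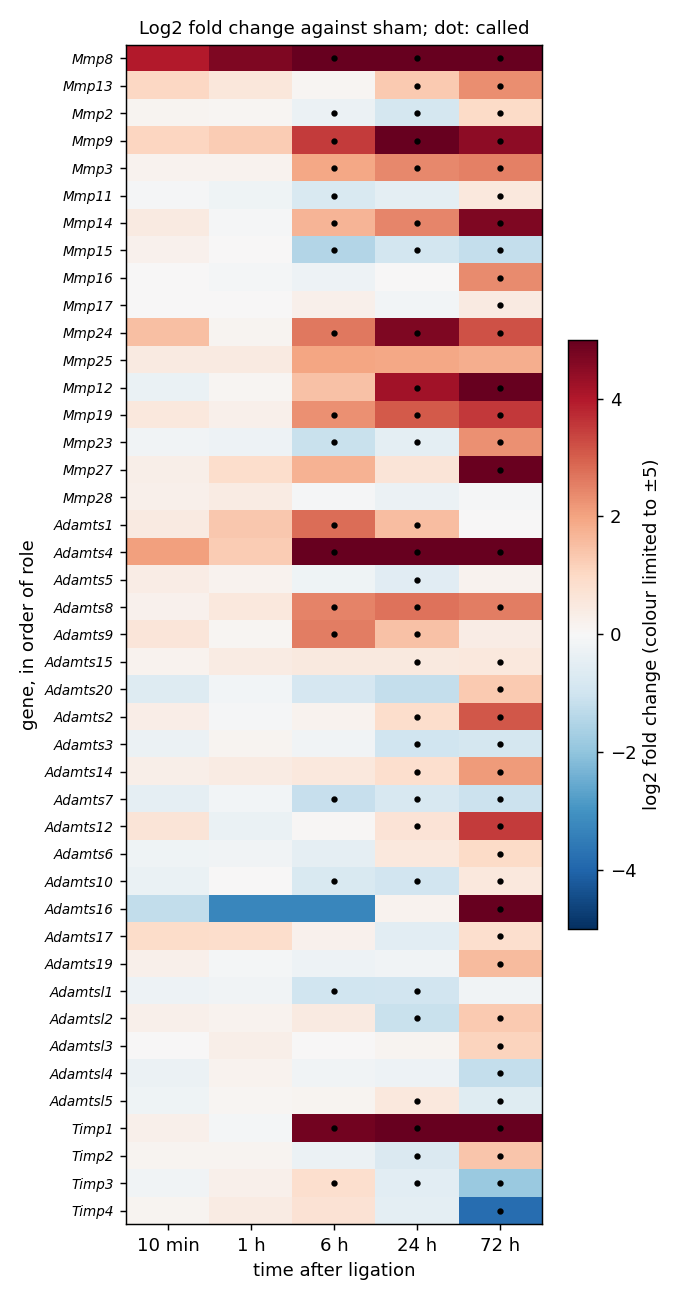
Log2 fold change against sham (colour) of the 43 tested members (rows, ordered by role) at the 5 times after ligation (columns), with a dot where the member was called. No dot appears at 10 min or 1 h, and the 72 h column has 37 dots, 30 of them on genes that were higher; the colours of Mmp8, Mmp24 and Adamts16 rest on 1 to 3 sham counts and are not estimates of size.

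From one time to the next, 0 members were called between 10 min and 1 h (background 0.307%). For that step 7 of the 43 had an unadjusted p under 0.05, beside 1212 of all 16311 genes tested. Between 1 h and 6 h 11 rose and 7 fell, against a background of 24.5%, with 14.5% of all genes higher and 10% lower. Between 6 h and 24 h 11 rose and 8 fell, against 27.8% (14.2% and 13.7%); scaled by library totals alone, 16 rose and 5 fell, and in a fit of the compared libraries alone 3 rose and 4 fell. Between 24 h and 72 h 22 rose and 7 fell, against 50.5% (24.4% and 26.1%). Over the whole span from 6 h to 72 h 24 rose and 7 fell, against 63% (31.3% and 31.6%). Scaled by library totals alone, 33 rose and 5 fell over that span. Among the 41 members called by the F test, the group with the highest mean was 72 h for 23 (56.1%), compared with 38.6% of all genes called by that test. The mean was highest at 6 h for 6 members (Adamts1, Adamts4, Adamts9, Mmp8, Timp3 and Timp4), or 14.6%, against 16.8% of all such genes. At 24 h it was highest for 4 (Adamts8, Adamtsl5, Mmp24 and Mmp9), or 9.76%, against 10.4%. Both of these shares were near those of all genes. A set of 8 members was called in both directions, at different times: Mmp2, Mmp11, Mmp23, Adamts10, Adamtsl2, Adamtsl5, Timp2 and Timp3. The share of all genes called in both directions was not counted, so this number has no background beside it. Mmp11 and Adamts10 are in the set through calls lost without single libraries. Adamtsl5 is in it through a 72 h call lost with libraries scaled by their totals alone.

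The collagenases cut the triple helix of fibrillar collagens, and 2 of them were members. Mmp8, the collagenase that neutrophils store in granules (Ensembl ENSMUSG00000005800, chr9:7558456-7568485, plus strand), was nearly absent in sham, with 1 count in all. The 3 libraries at 6 h held 23.7, 8.99 and 6.02 CPM (12.9 ± 9.44), those at 24 h 4.36, 1.03 and 11.2 CPM and those at 72 h 6.28, 7.49 and 5.82 CPM. All 9 libraries from 6 h on lay above every earlier one. The 6 h group had 698 counts, a ratio to sham of 761 with a counting interval of 136 to 30100 (95%, exact), and the edgeR adjusted p was 3.55e-04. The ratio was 303 (53.9 to 12000) at 24 h and 403 (72.1 to 15900) at 72 h, with edgeR adjusted p = 8.33e-04 and 1.84e-04. Mmp8 lay above all sham libraries already at 10 min and 1 h, with 19 and 31 counts, but was not called (edgeR adjusted p = 0.82 and 0.891). Without replicate 1, the highest of its group, the mean was 7.51 CPM at 6 h, and without replicate 3 it was 2.69 CPM at 24 h in place of 5.54.

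The neutrophil markers S100a8, S100a9, Csf3r, Ly6g, Retnlg and Cxcr2, summed, ranked the libraries in the same order as Mmp8 at 6 h, with 737, 260 and 97 CPM, and at 24 h, with 153, 35.1 and 653 CPM. At 72 h, with 45.1, 50 and 55.7 CPM, the order differed: replicate 3 had the most marker counts and the least Mmp8. Sham libraries held 2.31 to 3.58 CPM. At 6 h all 6 markers were called higher, with 5 called at 24 h and 4 at 72 h. Ly6g, 1 of the 6, was at 0 in every sham library. At 72 h the marker sum was below its 6 h range, and Mmp8, at 5.82 to 7.49 CPM, was near the lowest 6 h library. The part of the neutrophil markers in the Mmp8 levels was not tested.

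Mmp13, the other collagenase, which is made by stromal cells, changed later and less. Its sham libraries held 0.354, 0.83 and 0.444 CPM and those at 72 h 2.81, 3.11 and 2.32 CPM. All 3 of the 72 h values were above all values at the other times (log2FC 2.34, SE 0.38, adjusted p = 2.61e-05 by edgeR). The call at 24 h (1.77, 0.707 and 1.6 CPM; log2FC 1.31, SE 0.4, adjusted p = 0.0132 by edgeR) was lost without any 1 of 3 libraries (sham replicate 1 or 3, or 24 h replicate 1; adjusted p 0.056 to 0.0651).

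The gelatinases, which cut denatured collagen and basement membrane collagen, took different courses. Mmp9, stored by neutrophils and also made by macrophages (chr2:164940780-164955850, plus strand), had 0.708, 0.985 and 0.755 CPM in sham, 15, 8.56 and 4.21 CPM at 6 h, 20.5, 7.89 and 91.9 CPM at 24 h and 14.1, 23 and 17.8 CPM at 72 h. Every library from 6 h on lay above every earlier one, and the 24 h libraries spread over more than the whole range of those at 72 h. At 24 h it was 40.1 ± 45.3 CPM (log2FC 5.6, SE 0.89, adjusted p = 2.97e-04 by edgeR), and 14.2 CPM without replicate 3, the library with 653 CPM of neutrophil markers. The part of these markers in the Mmp9 levels was not tested. The 72 h call of Mmp9 rested on closer replicates (log2FC 4.48, SE 0.88, adjusted p = 5.01e-04 by edgeR). The 6 h call (edgeR adjusted p = 0.0116) was lost without 6 h replicate 1 (log2FC 2.97, adjusted p = 0.0542). The step from 6 h to 24 h (edgeR adjusted p = 0.0343) was lost without 24 h replicate 3 (log2FC 0.62, adjusted p = 0.33) and without 6 h replicate 2 or 3 (adjusted p = 0.0923 and 0.111).

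Mmp2, the gelatinase of fibroblasts and other stromal cells (chr8:92827291-92853420, plus strand), first fell and then rose. It held 51.1, 47 and 52.1 CPM in sham, 29.3, 25.5 and 27.3 CPM at 24 h and 101, 91.8 and 98.2 CPM at 72 h. The 3 groups did not overlap: 24 h was lowest and 72 h highest. At 24 h it was lower than sham (log2FC -0.87, SE 0.09, adjusted p = 2.83e-06 by edgeR) and at 72 h higher (log2FC 0.95, SE 0.09, adjusted p = 5.51e-08 by edgeR), with a rise between these times of 1.83 on the log2 scale (SE 0.1, edgeR adjusted p = 9.63e-11). The smaller decrease at 6 h (46.3, 36.8 and 40.2 CPM; log2FC -0.29, edgeR adjusted p = 0.0286) was not called without sham replicate 1 or 3 or 6 h replicate 2 or 3 (adjusted p 0.07 to 0.12). Summed fibroblast markers (Pdgfra, Tcf21, Dpt, Lum, Dcn, Col1a1 and Col1a2) were at 784 to 850 CPM in sham, 627 to 938 CPM at 24 h, with 3 of the 7 called higher and 3 lower, and 6720 to 8890 CPM at 72 h, with all 7 higher. Of the 72 h sums, Col1a1 alone made up 3070, 4350 and 3230 CPM, so they also measure collagen transcript. The part of these markers in the Mmp2 levels was not tested.

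Of the stromelysin group, Mmp3 (stromelysin 1, which cuts many matrix proteins and activates other MMPs) rose early and stayed up. The sham libraries held 2.88, 2.02 and 3.29 CPM, the 6 h libraries 13.6, 8.52 and 9.85 CPM, the 24 h libraries 14.6, 12.4 and 17.2 CPM and the 72 h libraries 14.4, 21.7 and 10.8 CPM. The sham, 10 min and 1 h libraries lay between 2.02 and 3.77 CPM, below all 9 later libraries. The increase was called at 6 h (log2FC 1.95, SE 0.26, adjusted p = 4.39e-05 by edgeR), 24 h (log2FC 2.42, SE 0.26, adjusted p = 2.71e-06 by edgeR) and 72 h (log2FC 2.51, SE 0.26, adjusted p = 1.19e-07 by edgeR), and the steps from 6 h to 24 h and from 24 h to 72 h were not (edgeR adjusted p = 0.146 and 0.782).

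Mmp11 (stromelysin 3) changed little: 7.84, 7.42 and 5.77 CPM in sham, 2.74, 4.55 and 4.85 CPM at 6 h and 9.18, 9.47 and 12 CPM at 72 h. It was lower at 6 h (log2FC -0.78, SE 0.22, adjusted p = 0.014 by edgeR) and higher at 72 h (log2FC 0.54, SE 0.21, adjusted p = 0.0291 by edgeR). Both calls depended on single libraries: the first was lost without sham replicate 1 (edgeR adjusted p = 0.0603) or 6 h replicate 1 (0.081), and the second without sham replicate 2 or 3 or 72 h replicate 3 (adjusted p 0.0504 to 0.135). Its exons share 155 bases with Chchd10 on the other strand, and the use of strand in counting is not given in the sources used here.

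The membrane-type MMPs act at the cell surface. Mmp14 (MT1-MMP), a collagenase that also activates pro-MMP2 (chr14:54431612-54445364, plus strand), was higher than sham at each late time. It had 16, 16.6 and 15.9 CPM in sham, 65.7, 41.8 and 51.3 CPM at 6 h, 61.1, 69 and 133 CPM at 24 h and 345, 453 and 425 CPM at 72 h. The sham, 6 h and 72 h groups did not overlap, and all 72 h libraries were above all those of the other 5 groups. Against sham the log2FC was 1.71 at 6 h (SE 0.26, edgeR adjusted p = 2.43e-04), 2.44 at 24 h (SE 0.26, edgeR adjusted p = 7.82e-06) and 4.66 at 72 h (SE 0.28, edgeR adjusted p = 1.94e-09). The 6 h and 24 h libraries overlapped, and the step between them (log2FC 0.73, SE 0.25, edgeR adjusted p = 0.0377) was lost without 24 h replicate 3 (log2FC 0.3, adjusted p = 0.22) and without 6 h replicate 2 or 3 (adjusted p = 0.133 and 0.0964). Between 24 h and 72 h it rose by 2.22 (SE 0.25, edgeR adjusted p = 3.37e-06).

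Mmp15 (MT2-MMP) moved the other way. Its level was 168, 163 and 168 CPM in sham, 58, 69.4 and 53.6 CPM at 6 h, 97.8, 104 and 60.6 CPM at 24 h and 81.8, 73.3 and 64.7 CPM at 72 h. All 9 late libraries were below all 9 of sham, 10 min and 1 h. The decrease was largest at 6 h (log2FC -1.46, SE 0.16, adjusted p = 5.40e-06 by edgeR) and was also called at 24 h (log2FC -0.92, edgeR adjusted p = 1.47e-04) and 72 h (-1.18, edgeR adjusted p = 1.96e-06). At 6 h the cardiomyocyte marker sum was 57800 to 68600 CPM, with 1 of 8 markers called lower, and the endothelial sum 1120 to 1550 CPM, with 1 of 5 lower and 1 higher. At 24 h 6 of 8 cardiomyocyte and 3 of 5 endothelial markers were called lower, and at 72 h 8 and 4, with sums of 17200 to 22400 CPM and 655 to 877 CPM. Their part in the Mmp15 levels was not tested.

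Mmp16 (MT3-MMP) was low and rose at 72 h alone among the 5 times: 0.657, 0.415 and 0.666 CPM in sham and 2.4, 3.38 and 3.4 CPM at 72 h, without overlap (log2FC 2.38, SE 0.28, adjusted p = 5.52e-07 by edgeR). Mmp24 (MT5-MMP) was nearly absent in sham, with 2 counts, and reached 0.82, 0.637 and 1.44 CPM at 24 h, above all other libraries. The ratio to sham at 24 h was 28.3 with a counting interval of 7.51 to 238 (65 counts; edgeR adjusted p = 4.92e-05), and at 72 h it was 10.6 (2.71 to 91.1; edgeR adjusted p = 0.00115). Its 6 h call (ratio 7.09, 1.61 to 64.7; edgeR adjusted p = 0.028) was lost without sham replicate 1 or 3 or 6 h replicate 1 or 2 (adjusted p 0.0612 to 0.0983). Mmp24 shares 637 exon bases with BC029722 on the other strand, a gene with 6605 counts in all, so its few reads are uncertain. Mmp17 rose at 72 h (4.95, 5.86 and 6.35 CPM in sham, 7.19, 9.01 and 7.38 CPM at 72 h; log2FC 0.46, edgeR adjusted p = 0.00848), a call lost without sham replicate 1 or 72 h replicate 2 (adjusted p = 0.0582 and 0.0585). Mmp25, a leukocyte MMP, was called at no time, and its highest libraries, 2.21 CPM in replicate 1 at 6 h and 2.06 CPM in replicate 3 at 24 h, were those with the most neutrophil marker counts. Without these libraries the group means were 0.38 and 0.444 CPM. The part of the neutrophil markers in the Mmp25 levels was not tested.

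Among the remaining MMPs, Mmp12 (macrophage elastase, chr9:7344381-7369499, plus strand) rose steeply. It stood at 0.202, 0.415 and 0.311 CPM in sham, 0.834, 1.39 and 0.32 CPM at 6 h, 4.88, 4.35 and 8.1 CPM at 24 h and 33.6, 41.1 and 33.7 CPM at 72 h. The 24 h libraries were above all earlier ones and below all those at 72 h. It was called at 24 h (log2FC 4.19, SE 0.47, adjusted p = 6.68e-06 by edgeR) and 72 h (log2FC 6.85, SE 0.45, adjusted p = 1.59e-09 by edgeR) but not at 6 h (edgeR adjusted p = 0.0735). The sum of 8 monocyte and macrophage markers moved with it, from 250 to 283 CPM in sham to 587 to 783 CPM at 24 h and 3210 to 4190 CPM at 72 h, with 7 markers called higher at 24 h and all 8 at 72 h, and none at 0 in sham. Its part in the rise was not tested.

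Mmp19, an MMP also made by macrophages and vessel wall cells, rose from 6 h on, from 1.42, 1.14 and 2.04 CPM in sham to 10.3, 7.42 and 5.38 CPM at 6 h, 10.7, 7.39 and 21 CPM at 24 h and 16.9, 21.6 and 15.3 CPM at 72 h. All 9 late libraries were above all earlier ones, with overlap between neighbouring late groups. The log2FC was 2.3 at 6 h (edgeR adjusted p = 3.99e-04) and 3.53 at 72 h (SE 0.38, edgeR adjusted p = 4.32e-07). It shares 789 exon bases (22.3% of its exon length) with Tmem198b on the other strand.

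Mmp23, a type II membrane MMP that is released by cleavage, fell before it rose. Libraries held 8.19, 6.79 and 7.02 CPM in sham, 3.58, 3.11 and 3.62 CPM at 6 h and 35, 33.3 and 40.1 CPM at 72 h, and the 3 groups did not overlap. The 6 h decrease (log2FC -1.1, SE 0.2, adjusted p = 5.69e-04 by edgeR) was followed by an increase over sham at 72 h (log2FC 2.3, SE 0.18, adjusted p = 4.45e-09 by edgeR). The call at 24 h (4.7, 7.07 and 3.66 CPM; log2FC -0.49, edgeR adjusted p = 0.0393) was lost without any 1 of 5 libraries (each sham replicate, and 24 h replicate 1 or 3; adjusted p 0.0525 to 0.193). Mmp27 was low until 24 h, at most 0.656 CPM, and had 3.12, 3.04 and 3.34 CPM at 72 h (log2FC 4.94, SE 0.55, adjusted p = 2.84e-07 by edgeR). The 72 h libraries held 99, 100 and 105 of its 357 counts. Mmp27 passed the filter for testing only through them, so this call is not separate support. Mmp28 differed by the F test (edgeR adjusted p = 0.0326) but in no single contrast with sham, with a highest library of 10.3 CPM at 1 h and a lowest of 3.76 CPM at 24 h.

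**Figure D2:**
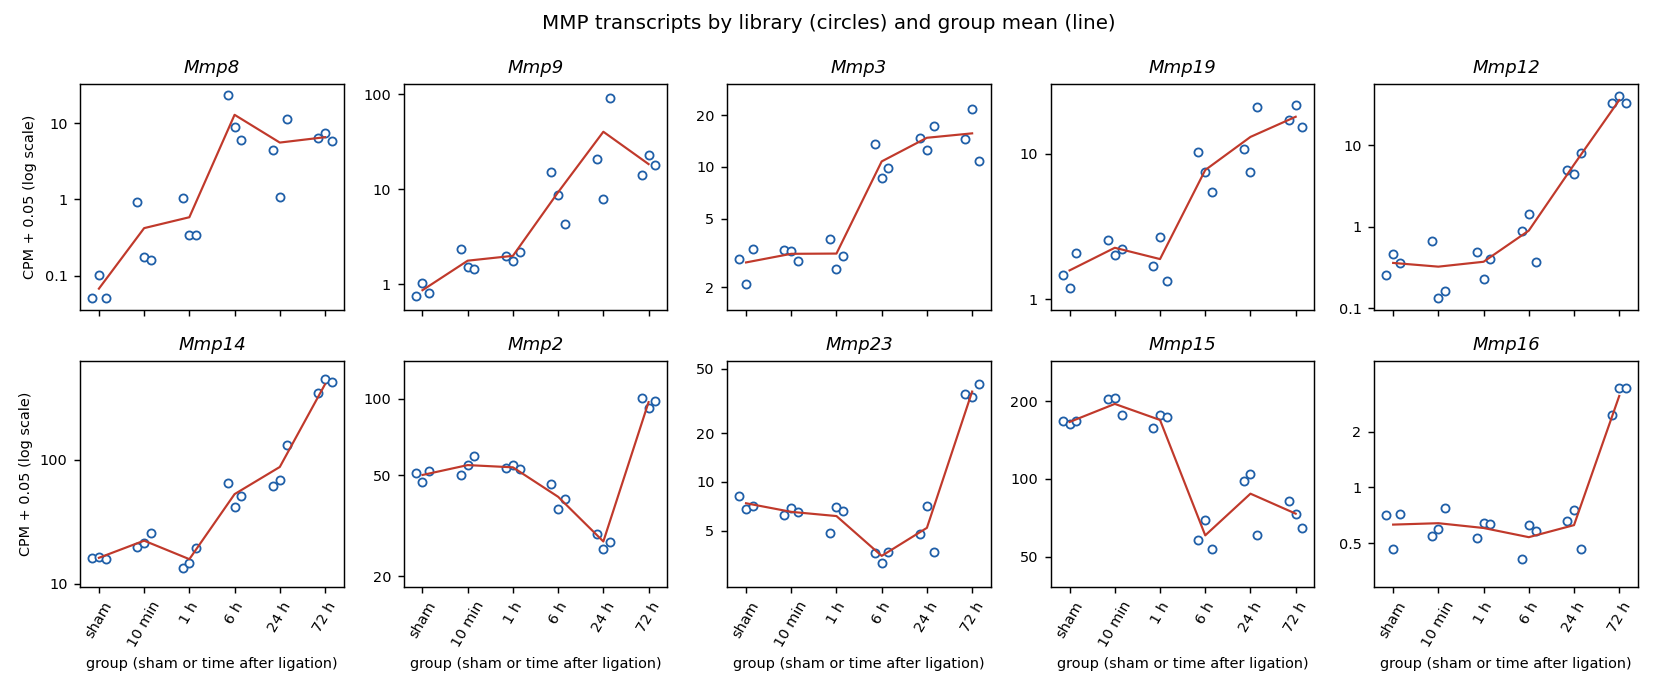
CPM + 0.05 on a log axis (a different range in each panel) for 10 MMPs, by group; circles are libraries and the red line joins the group means. Mmp8, Mmp9, Mmp3 and Mmp19 step up at 6 h, Mmp14 and Mmp12 climb to 72 h, Mmp2, Mmp23 and Mmp16 rise after 24 h, and Mmp15 drops at 6 h; at 24 h the highest Mmp9 library is at 91.9 CPM and the lowest at 7.89 CPM.

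Of the 17 MMPs, 15 were called at 72 h, 14 higher and only Mmp15 lower, with a median log2 fold change of 2.38; at 6 h 6 were higher and 4 lower, and at 24 h 8 higher and 3 lower. The shares of all genes called were 66.4% at 72 h, 28.4% at 6 h and 43.8% at 24 h. Per length, Mmp15 and Mmp2 made up most of the family's transcript in sham: 52.1% and 25.1% of a summed 59.2 ± 1.55 FPKM. At 72 h the sum was 163 ± 11.8 FPKM, of which Mmp14 was 42.4%, Mmp2 17.6% and Mmp23 9.46%. At 6 h the sum was 54.9 ± 10.1 FPKM, with Mmp2 at 22.2%, Mmp15 at 20.4% and Mmp14 at 16.4%.

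The proteoglycan-cleaving ADAMTS hold the 3 ADAMTS genes with their highest mean at 6 h. Adamts1 (chr16:85793827-85803113, minus strand), which cuts versican and aggrecan, held 51.2, 45 and 55.8 CPM in sham, 123, 121 and 140 CPM at 1 h, 559, 208 and 294 CPM at 6 h, 117, 128 and 197 CPM at 24 h and 49.5, 59.6 and 46.5 CPM at 72 h. The 6 h libraries were above all others, and those at 72 h overlapped with sham. It was higher than sham at 6 h (log2FC 2.8, SE 0.3, adjusted p = 1.72e-05 by edgeR) and 24 h (log2FC 1.54, SE 0.29, adjusted p = 6.52e-04 by edgeR), and at 72 h the difference was 0.03 (edgeR adjusted p = 0.925). All 3 libraries at 1 h were above all sham and 10 min libraries, but the difference at 1 h was not called (log2FC 1.34, SE 0.28, edgeR adjusted p = 0.0894). It was called without 6 h replicate 1 (log2FC 1.34, edgeR adjusted p = 9.43e-04) or 6 h replicate 2 (adjusted p = 0.0112), which enter only the shared estimate of spread, and in a fit of the sham and 1 h libraries alone (adjusted p = 1.72e-07).

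Adamts4, an aggrecanase that also cuts versican (chr1:171250421-171260637, plus strand), had the largest fitted increase of the proteoglycan-cleaving group. It went from 0.354, 0.104 and 0.489 CPM in sham to 167, 67.2 and 49.9 CPM at 6 h, 36.7, 13.7 and 127 CPM at 24 h and 31.4, 51.3 and 31.2 CPM at 72 h. All 9 late libraries were above all 9 earlier ones, of which the highest was 1.81 CPM. At 6 h the log2FC was 8.17 (SE 1.04, edgeR adjusted p = 1.28e-04) and at 72 h 6.85 (SE 1.05, edgeR adjusted p = 6.35e-05). The steps between the late times were not called (edgeR adjusted p = 0.451 and 0.432). The 6 h mean of 94.8 CPM was 58.5 CPM without replicate 1, and the 24 h mean of 59.2 CPM was 25.2 CPM without replicate 3. These libraries had the most neutrophil markers of each group, and 6 h replicate 1 also had the most atrial markers, as given below. The part of either in the Adamts4 levels was not tested.

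Adamts9, which cuts versican, had 24.1, 20.2 and 30.1 CPM in sham, 235, 104 and 99.9 CPM at 6 h, 53, 45.2 and 106 CPM at 24 h and 27.6, 40.9 and 27.2 CPM at 72 h. It was higher at 6 h (log2FC 2.56, SE 0.37, adjusted p = 2.60e-04 by edgeR) and 24 h (log2FC 1.45, SE 0.36, adjusted p = 0.00543 by edgeR), and the 72 h libraries overlapped with sham (edgeR adjusted p = 0.392). Adamts8 rose at the same time and stayed up, from 0.809, 0.778 and 1.15 CPM to 6.68, 4.02 and 4.79 CPM at 6 h, 4.53, 9.87 and 3.66 CPM at 24 h and 6.66, 5.72 and 3.91 CPM at 72 h, with no overlap between these 9 libraries and the earlier ones (log2FC 2.72, SE 0.35, adjusted p = 1.58e-05 by edgeR at 24 h). In replicate 1 at 6 h, the highest of all libraries in Adamts1, Adamts4 and Adamts9 and the highest of its group in Adamts8, 3 atrial markers also summed to 151 CPM, where no other library passed 3.41 CPM. Atrial markers and these genes were not tested against each other, and all 4 genes were called at 6 h without that library. The same library was the highest of its group for others, including Mmp3, Mmp8, Mmp9, Mmp14, Mmp19, Mmp24, Mmp25, Timp1 and Timp3. It was the lowest for some, including Adamts7, Mmp11 and Timp4. Of the members where it was highest, Mmp9 and Mmp24 lost their 6 h calls without it, as given above.

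The other members of this group changed less. Adamts5, the other main aggrecanase, was lower at 24 h (23.7, 24.6 and 16.9 CPM against 34.1, 28.9 and 33.7 CPM in sham; log2FC -0.57, edgeR adjusted p = 0.00691), a call lost with libraries scaled by their totals alone (log2FC -0.37, edgeR adjusted p = 0.0878). Adamts15 was not called by the F test (edgeR adjusted p = 0.1), though called higher at 24 h and 72 h, with log2FC values of 0.5 and 0.51; the first was lost without any sham replicate or 24 h replicate 1 or 2, and the second without sham replicate 1 or 72 h replicate 1 or 3 (edgeR adjusted p up to 0.148 and 0.105). Adamts20 rose at 72 h from 0.809, 0.519 and 0.222 CPM to 1.2, 1.28 and 1.3 CPM (edgeR adjusted p = 0.00991), a call lost without sham replicate 3 (log2FC 0.91, adjusted p = 0.0708). In all, 4 of the 7 proteoglycan-cleaving ADAMTS were higher at 6 h and 0 lower, 5 higher and 1 lower at 24 h, and 4 higher and 0 lower at 72 h. Of all genes, 28.4%, 43.8% and 66.4% were called at these times, and the share of this group at 72 h was below that background.

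Of the procollagen N-propeptidases, which trim newly made fibrillar procollagens, Adamts2 and Adamts14 rose at 24 h and 72 h and Adamts3 fell. Adamts2 (chr11:50602084-50807573, plus strand) held 25.4, 22.1 and 26.7 CPM in sham, 41.5, 50.1 and 46.1 CPM at 24 h and 198, 227 and 206 CPM at 72 h. The spread within groups was small and the 3 groups did not overlap. It was higher at 24 h (log2FC 0.89, SE 0.1, adjusted p = 3.46e-06 by edgeR) and at 72 h (log2FC 3.09, SE 0.1, adjusted p = 2.18e-13 by edgeR), the smallest p of any member. Adamts14 rose from 2.22, 2.39 and 3.55 CPM to 12.5, 11.8 and 11.8 CPM at 72 h (log2FC 2.14, SE 0.21, adjusted p = 5.56e-08 by edgeR) and was also called at 24 h (log2FC 0.85, edgeR adjusted p = 0.00339). Adamts3, the third of them, had 4.85, 3.37 and 4.62 CPM in sham, 2.5, 2.16 and 1.7 CPM at 24 h and 2.84, 2.5 and 1.72 CPM at 72 h (log2FC -1.01 and -0.86, edgeR adjusted p = 0.00102 and 0.00117). The 72 h decrease of Adamts3 was not called when libraries were scaled by their totals alone (log2FC -0.29, edgeR adjusted p = 0.236).

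Adamts7 and Adamts12, which cut cartilage oligomeric matrix protein (COMP), took opposite directions. Adamts12 had 1.42, 1.19 and 1.55 CPM in sham and 12.4, 22.2 and 12.9 CPM at 72 h, above all other libraries (log2FC 3.5, SE 0.24, adjusted p = 8.17e-10 by edgeR); its call at 24 h (log2FC 0.67, edgeR adjusted p = 0.0362) was lost without sham replicate 1 or 2 or 24 h replicate 2 or 3 (adjusted p 0.0531 to 0.142). Adamts7 had 43.6, 36.5 and 38.5 CPM in sham, 12.5, 18 and 23.4 CPM at 6 h and 19.1, 19.4 and 17.6 CPM at 72 h, with all 9 late libraries below all earlier ones (log2FC -1.14, SE 0.16, adjusted p = 8.07e-05 by edgeR at 6 h; edgeR adjusted p = 9.69e-06 at 72 h).

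Of the other ADAMTS, whose substrates are less well defined, 5 of 5 tested were higher at 72 h, when 34.2% of all genes tested were. The calls of Adamts10 and Adamts17 among them depended on single libraries, as given below. Adamts16 had 3 counts in all sham libraries and 189 at 72 h (1.83, 2.25 and 1.81 CPM), a ratio of 40.4 with a counting interval of 13.6 to 198 (edgeR adjusted p = 1.45e-05), and 0 counts at 1 h and 6 h. With 197 counts over all libraries, it met the count rules for members and for testing only through the 72 h group. Its call at 72 h is therefore not separate support. Adamts6 rose from 3.94, 2.96 and 3.64 CPM to 6.31, 7.58 and 6.68 CPM (log2FC 0.96, SE 0.24, adjusted p = 0.00201 by edgeR) and Adamts19 from 0.506, 0.674 and 0.489 CPM to 2.15, 1.28 and 1.59 CPM (log2FC 1.58, SE 0.44, adjusted p = 0.00397 by edgeR), neither overlapping with sham. Adamts10, which acts on fibrillin microfibrils, was lower at 24 h (21.2, 34.4 and 19.1 CPM against 52.5, 44.2 and 48.9 CPM in sham; log2FC -0.96, SE 0.21, adjusted p = 0.00211 by edgeR). Its calls at 6 h (lower, edgeR adjusted p = 0.0159) and 72 h (higher, 70.2, 56.4 and 82 CPM, edgeR adjusted p = 0.0385) were lost without any 1 of 3 libraries (sham replicate 1, 6 h replicate 1 or 2) and of 6 libraries (each sham replicate, 10 min replicate 3, 72 h replicate 1 or 3), with adjusted p up to 0.0645 and 0.157. Adamts17 was called at 72 h (log2FC 0.85, edgeR adjusted p = 0.0354), but not without sham replicate 1 or 3 or 72 h replicate 3 (adjusted p up to 0.281). Adamts18 had between 0 and 0.336 CPM in any library.

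**Figure D3:**
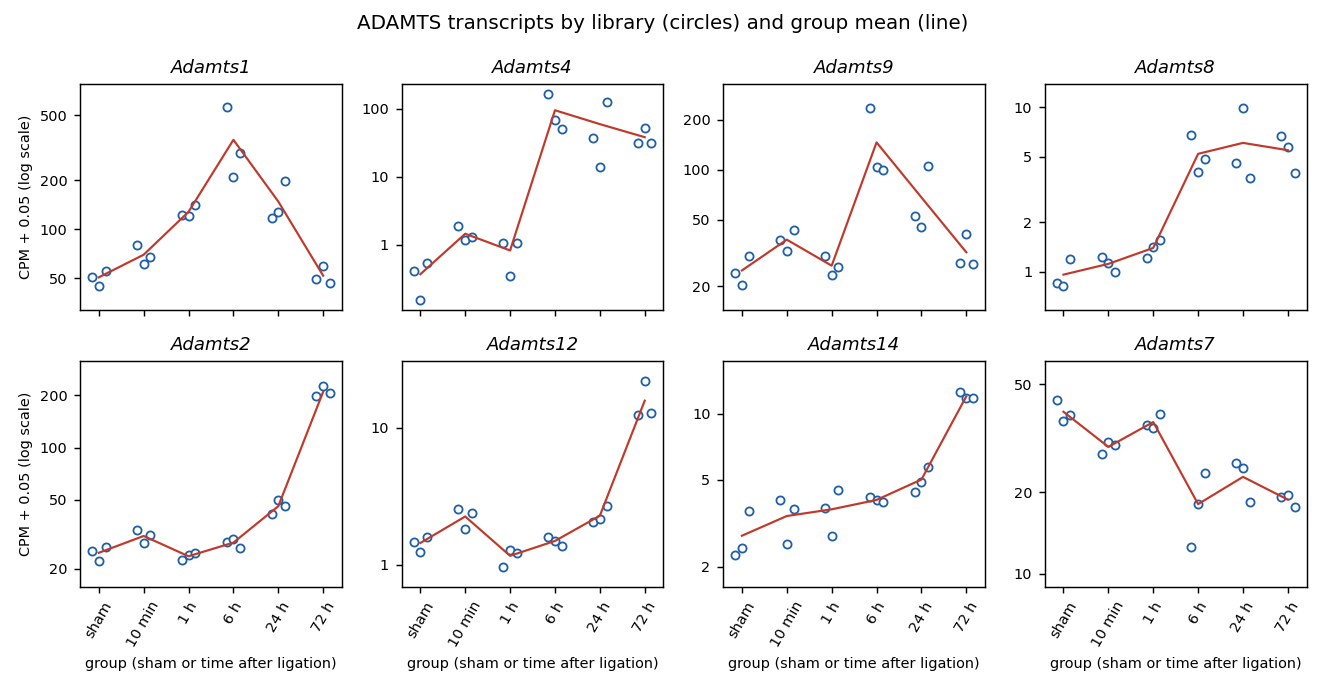
CPM + 0.05 on a log axis (a different range in each panel) for 8 ADAMTS genes, by group; circles are libraries and the red line joins the group means. Adamts1, Adamts4 and Adamts9 have their highest mean at 6 h and Adamts8 stays up, while Adamts2, Adamts12 and Adamts14 rise at 72 h and Adamts7 falls at 6 h; the highest 6 h circle of Adamts1, 559 CPM, is replicate 1.

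Per length, Adamts1 was the largest part of the ADAMTS transcript from sham (26.2% of 36.5 ± 3.17 FPKM) to 6 h (57.8% of 116 ± 51.3 FPKM) and 24 h (42.4% of 65.6 ± 20.2 FPKM). At 72 h Adamts2 was, with 31.2% of 72.2 ± 4.66 FPKM. Of the 17 ADAMTS tested, 4 were higher and 2 lower at 6 h, 8 higher and 4 lower at 24 h, and 12 higher and 2 lower at 72 h, against 28.4%, 43.8% and 66.4% of all genes called. The 6 h count of 6 is near that background.

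The 5 ADAMTS-like genes, whose products lack protease activity, moved in both directions. Adamtsl4, which binds fibrillin 1, fell at 72 h from 62, 60.2 and 55.4 CPM in sham to 29.8, 21.4 and 26.9 CPM (log2FC -1.19, SE 0.14, adjusted p = 5.08e-07 by edgeR). Adamtsl2, another microfibril protein, was lower at 24 h (6.39, 6.12 and 4.9 CPM against 13.3, 8.4 and 16.2 CPM in sham; log2FC -1.12, SE 0.26, adjusted p = 0.00277 by edgeR) and higher at 72 h (36.5, 23.9 and 33.6 CPM; log2FC 1.31, SE 0.25, adjusted p = 1.87e-04 by edgeR). Adamtsl3 rose at 72 h from 6.88, 6.38 and 6.62 CPM to 12.1, 18.7 and 12 CPM (log2FC 1.11, SE 0.2, adjusted p = 6.51e-05 by edgeR). Adamtsl5, the most abundant of the 5 per length in every group, had 97.8, 86.3 and 84.7 CPM in sham, 126, 143 and 113 CPM at 24 h and 64.3, 48.9 and 61.3 CPM at 72 h. It was called higher at 24 h (log2FC 0.51, edgeR adjusted p = 0.00333) and lower at 72 h (log2FC -0.62, SE 0.13, adjusted p = 2.75e-04 by edgeR); with libraries scaled by their totals alone, which moved the median of all genes at 72 h to 0.61, the 72 h difference was -0.04 (adjusted p = 0.816). Adamtsl1 was lower at 6 h and 24 h (log2FC -0.98 and -0.95, edgeR adjusted p = 0.00899 and 0.00581), and at 72 h it had 4.07, 5.18 and 3.95 CPM against 4.15, 4.93 and 5.77 CPM in sham (edgeR adjusted p = 0.549).

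The 4 inhibitors separated. Timp1 (chrX:20870166-20874735, plus strand), a secreted inhibitor known to be induced in injured tissue, held 1.97, 1.4 and 1.69 CPM in sham and no more than 2.3 CPM in any library at 10 min or 1 h. It then had 61.4, 41.4 and 41.9 CPM at 6 h, 122, 138 and 262 CPM at 24 h and 175, 251 and 155 CPM at 72 h. The 6 h libraries stood above all earlier ones and below all later ones, and those at 24 h and 72 h overlapped. The log2FC was 4.83 at 6 h (SE 0.33, edgeR adjusted p = 4.97e-07), 6.68 at 24 h (SE 0.35, edgeR adjusted p = 2.18e-08) and 6.84 at 72 h (SE 0.35, edgeR adjusted p = 3.22e-10). The rise from 6 h to 24 h was called (edgeR adjusted p = 1.70e-04), and the difference between 24 h and 72 h was not (0.16, edgeR adjusted p = 0.629).

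Timp2, which binds MMP14 and takes part in the activation of pro-MMP2 (chr11:118301069-118355740, minus strand), fell and then rose. Libraries held 88.6, 85.6 and 91 CPM in sham, 80.5, 72.4 and 63.9 CPM at 6 h, 61.1, 59.9 and 38.7 CPM at 24 h and 235, 203 and 247 CPM at 72 h. All 24 h libraries were below all of the other groups, and all 72 h libraries above. It was lower than sham at 24 h (log2FC -0.73, SE 0.14, adjusted p = 3.81e-04 by edgeR) and higher at 72 h (log2FC 1.37, SE 0.14, adjusted p = 6.74e-08 by edgeR), a rise of 2.1 between them (edgeR adjusted p = 1.46e-09). Mmp2 over the same steps changed by -0.87 and 0.95 against the same sham libraries.

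Timp3, the matrix-bound inhibitor (chr10:86300372-86349506, plus strand), rose first and then fell. It had 217, 278 and 240 CPM in sham, 501, 409 and 395 CPM at 6 h, 201, 165 and 148 CPM at 24 h and 69.3, 78.6 and 52.9 CPM at 72 h. The 6 h libraries were above all others, and the 72 h libraries below. It was higher at 6 h (log2FC 0.83, SE 0.17, adjusted p = 0.00189 by edgeR) and lower at 72 h (log2FC -1.87, SE 0.18, adjusted p = 5.29e-08 by edgeR). The call at 24 h (log2FC -0.51, edgeR adjusted p = 0.0224) was lost without sham replicate 2 or 24 h replicate 2 or 3 (adjusted p 0.0617 to 0.102) and with libraries scaled by their totals alone (log2FC -0.32, edgeR adjusted p = 0.108). Its exons share 1733 bases (21.3%) with Syn3 on the other strand, a gene with 206 counts in all.

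Timp4 (chr6:115241892-115252205, minus strand) had 68.3, 83.2 and 82.3 CPM in sham, 114, 119 and 157 CPM at 6 h, 73.6, 47.8 and 47.3 CPM at 24 h and 6.94, 4.17 and 5.44 CPM at 72 h. The 72 h libraries were far below all others, whose lowest was 47.3 CPM. It was lower at 72 h (log2FC -3.82, SE 0.33, adjusted p = 9.22e-08 by edgeR) and fell from 24 h to 72 h by 3.35 on the log2 scale (SE 0.32, edgeR adjusted p = 8.92e-07). The difference from sham was not called at 6 h (log2FC 0.74, edgeR adjusted p = 0.0663) or 24 h (-0.47, edgeR adjusted p = 0.197). The sum of 8 cardiomyocyte markers was 65600 to 71000 CPM in sham, 28300 to 44800 CPM at 24 h (6 of 8 called lower) and 17200 to 22400 CPM at 72 h (8 of 8). The part of these markers in the fall of Timp3 and Timp4 was not tested.

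**Figure D4:**
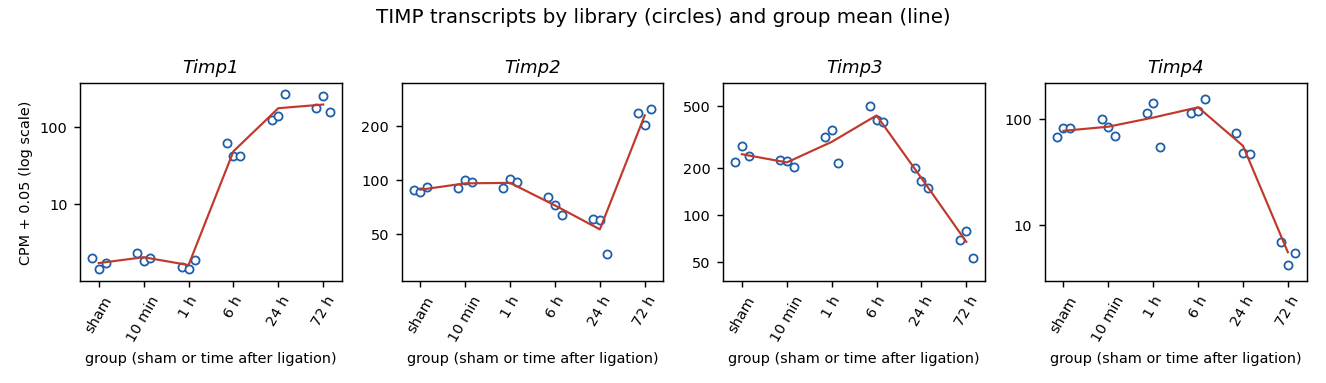
CPM + 0.05 on a log axis (a different range in each panel) for the 4 TIMPs, by group; circles are libraries and the red line joins the group means. Timp1 climbs from a sham mean of 1.69 CPM to 194 CPM at 72 h, Timp2 dips to 53.2 CPM at 24 h and reaches 229 CPM at 72 h, Timp3 is highest at 6 h (435 CPM) and lowest at 72 h (67 CPM), and Timp4 ends at 5.52 CPM.

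Per length, the make-up of the TIMP transcript turned over. In sham Timp3 held 44.2% ± 2.86 of the summed TIMP FPKM, Timp2 33.5% ± 2.69, Timp4 19.4% ± 1.01 and Timp1 2.82% ± 0.658. At 6 h Timp1 had 36.3% ± 3.65, close to Timp3 with 36% ± 1.05. At 24 h Timp1 made up 79.8% ± 8.53 and at 72 h 75.6% ± 5.59, when Timp2 had 21.2% ± 5.49, Timp3 2.88% ± 0.277 and Timp4 0.341% ± 0.122. The sham range of the Timp1 share, 2.2% to 3.51%, lay below the 24 h range, 72.3% to 89.1%, and the 72 h range, 71.1% to 81.9%. Meanwhile the sum of the 4 went from 67.9 ± 4.31 FPKM in sham to 148 ± 19.4 FPKM at 6 h, 240 ± 78.6 FPKM at 24 h and 286 ± 52.3 FPKM at 72 h.

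**Figure D5:**
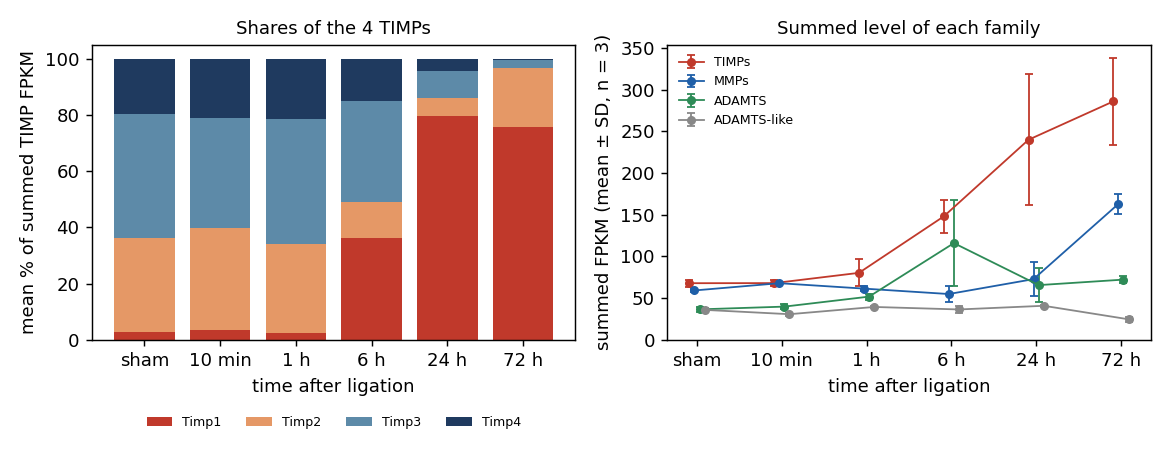
Left, the mean percent of the summed TIMP FPKM held by each TIMP in each group (stacked bars). Right, the summed FPKM of the TIMPs, MMPs, ADAMTS and ADAMTS-like genes (mean ± SD, n = 3). Timp1 passes from 2.82% in sham to 79.8% at 24 h. The mean TIMP and MMP sums are highest at 72 h (286 and 163 FPKM), and the mean ADAMTS sum at 6 h (116 FPKM). The ADAMTS sums of the 6 h libraries, 78.9 to 174 FPKM, overlap those at 24 h, 53.1 to 88.9 FPKM.

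Genes of the same pathway outside these families were read from 3 lists. Of 18 activators, inhibitors and receptors of matrix proteolysis, 15 were tested: 7 were higher and 1 lower at 6 h, 8 and 3 at 24 h, and 9 and 3 at 72 h, beside 28.4%, 43.8% and 66.4% of all genes called in either direction. The 4 with the smallest F test p all rose by 72 h. Plau, the urokinase that generates plasmin, went from 5.36, 6.48 and 5.15 CPM in sham to 26.2, 47 and 34.2 CPM at 72 h (log2FC 2.66, SE 0.25, edgeR adjusted p = 5.78e-08). Serpine2, a serine protease inhibitor, went from 25.9, 28.6 and 28.9 CPM in sham to 70.6, 77.9 and 72.6 CPM at 72 h (log2FC 1.41, SE 0.09, edgeR adjusted p = 3.22e-10). Lrp1, an endocytic receptor that clears proteases and their inhibitors, went from 209, 211 and 226 CPM in sham to 652, 855 and 621 CPM at 72 h (log2FC 1.72, SE 0.13, edgeR adjusted p = 2.69e-09). Cd63, a tetraspanin that binds TIMP1, went from 131, 138 and 131 CPM in sham to 414, 458 and 477 CPM at 72 h (log2FC 1.76, SE 0.11, edgeR adjusted p = 3.45e-10).

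Of 23 genes listed as other metzincins and matrix proteases, 20 were tested, and 8 were higher and 5 lower at 6 h, 8 and 4 at 24 h, and 16 and 2 at 72 h, with a median log2 fold change of 1.68 at 72 h. The tested genes include Pcolce and Pcolce2, which enhance procollagen processing and are not proteases themselves. The background was again 28.4% of all genes called at 6 h, 43.8% at 24 h and 66.4% at 72 h. Adam12, a membrane metalloprotease of activated stromal cells, went from 0.303, 0.259 and 0.4 CPM in sham to 37.6, 60.2 and 45.2 CPM at 72 h (log2FC 7.18, SE 0.33, edgeR adjusted p = 1.19e-11). The cathepsins Ctsk, Ctss and Ctsb, cysteine proteases of lysosomes that can also cut matrix, rose by 3.21, 5.49 and 2.7 at 72 h (edgeR adjusted p = 2.55e-12, 5.94e-12 and 3.27e-13).

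Of 24 matrix substrates, 22 were tested. At 6 h 8 were higher and 3 lower, at 24 h 14 and 5, and at 72 h 20 higher and 1 lower, with a median log2 fold change of 3.19, where the genes called among all tested were 28.4%, 43.8% and 66.4%. The fibrillar collagen genes named by the same rule were highest at 72 h: Col1a1 had 78.3, 59.9 and 84.9 CPM in sham, 60.7, 49.7 and 42 CPM at 6 h and 3070, 4350 and 3230 CPM at 72 h (log2FC 5.58, SE 0.26, adjusted p = 1.72e-11 by edgeR). Col3a1 and Col5a1 were lower at 6 h (log2FC -0.83 and -1.07, edgeR adjusted p = 0.00822 and 1.63e-04) and higher at 72 h (5.23 and 3.78, edgeR adjusted p = 2.10e-11 and 9.20e-12), and Col5a2 rose by 4.42 at 72 h (edgeR adjusted p = 5.43e-12). Summed markers of activated fibroblasts went from 118 to 173 CPM in sham to 1980 to 2120 CPM at 72 h (all 4 called higher), beside Adamts2, Adamts12, Adamts14, Mmp14, Mmp16, Mmp23 and these collagens, and their part in those increases was not tested.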

How the data were processed

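RNA was measured by poly(A)-selected sequencing, and, per the labels' protocols, libraries were made from fragmented mRNA with random hexamers and PCR, with no molecular identifiers. The labels do not say that replicates were handled apart beyond being separate mice, so p-values measure the spread between these mice. The authors deposited whole-number read counts per Ensembl gene and, beside them, FPKM values made from the same counts, the gene length and the library total. The submitters' processing notes name HISAT2 2.1.0, cutadapt 1.18, featureCounts and the build mm10; the use of strand in counting is not given in the sources used here. Symbols matched 30489 of 30583 gene IDs, and 94 had none; 0 rows named no gene. The deposited FPKM columns of 6 h replicates 2 and 3 matched each other's counts, so FPKM was computed anew from the counts, the lengths recovered from the files and TMM-scaled totals. Whether the FPKM or the counts carry the wrong numbers cannot be told. The numbers of 6 h replicates 2 and 3 given here follow the counts. Coordinates are from GENCODE M21 on GRCm38. An overlap of exons between a member and a gene on the other strand is not reported in every case.

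Counts were analysed with edgeR 4.0.16 in R 4.3.3, after filterByExpr (16311 genes kept, 14272 removed) and TMM scaling. A robust quasi-likelihood fit had 1 mean per group over all 18 libraries. The procedure was also run on simulated counts in which a small share of genes changed, evenly up and down, in 1 group. That run cannot check the scaling where most genes are called, as at 72 h. Contrasts were each time against sham, each time against the one before, and 72 h against 6 h, two-sided, with Benjamini-Hochberg adjustment. A ratio to a group with 1 to 3 counts is given with an exact 95% binomial counting interval, which covers counting error only. Alternatives were RLE and library size scaling, other count filters, DESeq2 1.42.0, limma 3.58.1 on log2(FPKM + 1) and log2(FPKM + 0.1), the replicate number as a block, the compared libraries alone, and leaving out each library. Genes with values in each library are the 4 TIMPs, up to 4 members of each role group with the smallest F test p, and 4 genes of each pathway list; other members are given in brief. The members, roles and lists were chosen with earlier results of these data known.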

Additional observations from a re-analysis of the deposited data

Results flagged for a closer look

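A set of 8 members was called on both sides of sham, and for these the step between the times is given (edgeR, adjusted over all genes). Both differences share the sham libraries, which cancel in the step between times. The 8 were picked from these same values, being called below sham at some time and above it at another. Their steps were therefore bound to be large, and the p-values describe them without being separate support. Mmp23 was at -1.1 on the log2 scale at 6 h and 2.3 at 72 h, a step of 3.39 (SE 0.2, adjusted p = 9.09e-11), and its step from 24 h to 72 h was 2.79 (adjusted p = 1.50e-09). For Mmp2 the step was 1.83 from 24 h to 72 h (SE 0.1, adjusted p = 9.63e-11) and 1.24 from 6 h to 72 h (adjusted p = 2.82e-09). Timp2 went from -0.73 at 24 h to 1.37 at 72 h, a step of 2.1 (adjusted p = 1.46e-09). Adamtsl2 went from -1.12 to 1.31 between the same times, a step of 2.43 (adjusted p = 1.23e-06). Adamts10 rose by 1.48 from 24 h to 72 h and by 1.27 from 6 h to 72 h (adjusted p = 2.95e-05 and 7.56e-05), and Mmp11 by 1.33 from 6 h to 72 h (adjusted p = 3.59e-05). The other two moved down: Timp3 had a step of -1.34 from 6 h to 24 h and -2.7 from 6 h to 72 h (adjusted p = 5.35e-05 and 9.93e-10), and Adamtsl5 a step of -1.13 from 24 h to 72 h (adjusted p = 8.98e-07).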

How the results depend on the processing

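The 35 members named with values in each library were picked by smallest F test p within their role group. Each was taken at the 1 contrast with sham where its p was smallest. Both choices favour stable calls, so the next count does not measure the stability of all calls. Of 936 alternative values, 931 kept their direction and side of the threshold and 0 reversed. The other 5 kept only the direction (Mmp11 at 6 h and Adamtsl5 at 72 h, given above). Fits whose count filter removed a member are not among the 936. Calls of these members at other times are not in that count and some were lost, as given above. The limma fits, like library size scaling, gave -0.04 for Adamtsl5 (limma adjusted p = 0.785 and 0.781 with 1 and 0.1 added). Counts of called members moved by over 1.5 times at 10 min, at 1 h and in the steps from 10 min to 1 h and from 6 h to 24 h. The share of all genes called in the alternative fits was not counted, so their counts have no background beside them. A fit of the compared libraries alone has its own estimate of spread and may call more or fewer genes of any kind. At 10 min, a fit of the compared libraries alone called 6 (Adamts1, Adamts4 and Mmp14 higher, Adamts7, Adamts10 and Adamtsl4 lower) in place of 0. At 1 h, DESeq2 called 1 (Adamts1), limma with 0.1 added 1 (Adamts1) and the compared libraries alone 2 (Adamts1 and Mmp9), in place of 0. From 10 min to 1 h the compared libraries alone called 3 (Adamts1, Adamtsl4 and Adamtsl5), and from 6 h to 24 h 7 in place of 19. Leaving out 1 library gave 0 to 1 at 1 h (1 without 6 h replicate 1 or 2) and 0 to 1 from 10 min to 1 h (1 without 6 h replicate 1); it gave 15 to 22 at 6 h, 25 to 31 at 24 h and 33 to 38 at 72 h. Of 85 calls against sham, 69 held in all 18 such fits and 16 were lost in some. Library size scaling moved the median of all genes to -0.12, 0.2 and 0.61 at 6, 24 and 72 h, and the split from 6 h to 24 h from 11 higher and 8 lower to 16 and 5. With the replicate number as a block (replicate block), 20, 29 and 38 members were called at 6, 24 and 72 h. Deviations of same-numbered libraries from their group means were weakly correlated (45 pairs, -0.37 to 0.4, median 0.06, 11 over 0.1). Pairs with different numbers gave -0.42 to 0.57 (90 pairs, median -0.02, 19 over 0.1). Such correlations cannot exclude that same-numbered mice were handled together, so whether the numbers pair mice is not known. With 3 mice per group and few reads for Mmp8, Mmp24 and Adamts16 in sham, their sizes are known only within the intervals given.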
